A study of Homo sapiens with 12 samples.

Results

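The nuclear-encoded subunits of the mitochondrial respiratory chain and ATP synthase were followed on arrays while RUES2 cells, an established line of human embryonic stem cells, differentiated towards airway epithelium. Members were all probe sets whose gene symbol names a subunit series of complex I (NDUFA, NDUFB, NDUFC, NDUFS, NDUFV), succinate dehydrogenase (SDHA to SDHD), the UQCR series of complex III, the series COX4 to COX8 of complex IV, or ATP5. Of 22458 probe sets with a symbol, 81 matched, and 2 pseudogenes and 2 noncoding genes were left out. The remaining 77 were made up of 34 for complex I, 2 for complex II, 7 for complex III, 16 for complex IV and 18 for complex V.

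The respiratory chain in the inner mitochondrial membrane passes electrons from NADH and succinate to oxygen and pumps protons, and ATP synthase (complex V) uses the proton gradient to make ATP. Complex I takes electrons from NADH, complex II from succinate, complex III hands them to cytochrome c, and complex IV passes them to oxygen. Most subunits are encoded in the nucleus and assembled with a few encoded by mitochondrial DNA, which are not analysed here. Some subunits of complex IV exist as isoforms typical of a tissue: COX4I2 is known from lung and from oxygen-sensing cells, COX6A2 and COX7A1 from heart and skeletal muscle, and COX6B2, COX7B2 and COX8C from testis.

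There were 12 arrays in 5 groups, each from RUES2 cells. Day 0 (n = 2) was the undifferentiated line, day 15 (n = 2) a sort of progenitors as CD47hi, and day 22 (n = 2) a harvest for which the labels name no sort. Day 36 gave a sort without SCGB3A2, named SCGB3A2- (n = 3), and a sort with it, named SCGB3A2+ (n = 3). Per the labels' protocols the cells passed through definitive endoderm, anterior foregut endoderm and lung progenitors. These were sorted on CD47 and then grown in medium low in Wnt. SCGB3A2 is a secretoglobin of airway epithelium. Sorting came with only some of the groups, so that sorting, time in culture and cell state cannot be told apart in comparisons across days. All groups come from 1 cell line. Since the labels do not say whether replicates were separate cultures, the p-values reflect spread among arrays that may be only technical.

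Values are RMA log2 values of 1 probe set a gene, and a difference is one of group means on the log2 scale ± limma's standard error (SE). A member was called where the adjusted p of limma, over all 23786 probe sets, was under 0.05. Levels of different probe sets are not compared, since probes differ in how they bind. RMA gives the arrays nearly the same distribution, and in bulk RNA fewer cells of a type and less RNA per cell cannot be told apart.

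Arrays of a group correlated at 0.978 to 0.993 over all probe sets. Over the 77 members the arrays of day 0 differed by a median of 0.26, and by more than 0.5 for 20 members, against medians of 0.10 to 0.17 and 1 to 4 members in the other groups. SCGB3A2 fitted the sort of day 36, with a mean of 9.11 in SCGB3A2+ and 2.32 in SCGB3A2-, but stood at 7.24 and 7.05 on the day 0 arrays. NKX2-1, the lung transcription factor, was at 2.97 at day 0, 6.78 at day 15, 4.13 in SCGB3A2- and 7.63 in SCGB3A2+. The liver genes AFP, ALB and APOA1 were also high from day 22 on: the mean of the 3 was 9.89 to 10.4 on the day 22 arrays, 9.50 to 10.5 in SCGB3A2- and 8.34 to 9.10 in SCGB3A2+.

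Between day 15 and day 22 the calls among respiratory chain members were all upward, and in SCGB3A2+ cells most were downward. Members called higher at day 22 than at day 15 numbered 14 of 77, and 0 were called lower, where 8.95% and 10.6% of all probe sets were. SCGB3A2+ cells had 24 members called lower and 2 called higher than SCGB3A2- cells, where 12.8% and 10.1% of all probe sets were. The 2 exceptions, NDUFA5 and NDUFB5, are both accessory subunits of complex I. Probe sets with low values were called less often, and shares without them are given for both comparisons further on.

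An F-test for any difference among the 5 groups called 52 of 77 members (67.5%), where it called 51.3% of all probe sets. Of the 77 members 71 had a highest group mean above 2.96, against 16116 of all 23786 probe sets. F-test shares without probe sets of low values were not taken, so these shares are not like for like. The median distance between a member's highest and lowest group mean was 0.66, against 0.70 over all probe sets. Of the 52, 21 had their highest mean in SCGB3A2- and 19 at day 22, compared with 7 at day 0, 5 in SCGB3A2+ and 0 at day 15. Their lowest mean lay at day 0 for 21, in SCGB3A2+ for 17, at day 15 for 13, in SCGB3A2- for 1 and at day 22 for 0. Over all probe sets called by the F-test, the highest mean lay at day 22 for 12.5% and in SCGB3A2- for 11.9%, against 36.5% and 40.4% of the members called. The lowest mean lay at day 0 for 33%, in SCGB3A2+ for 24.8% and at day 15 for 16.3% of them, against 40.4%, 32.7% and 25% of the members called.

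**Figure D1:**
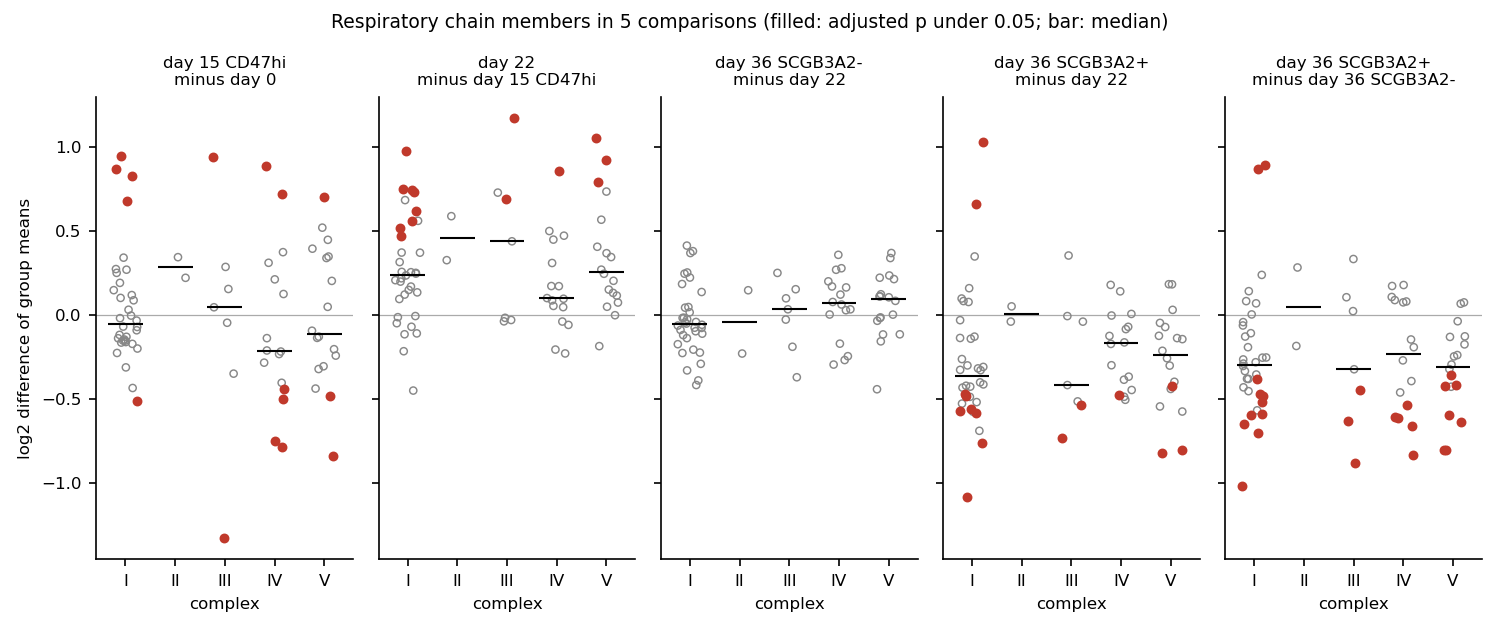
Each point is 1 of the 77 members, placed by complex, with the log2 difference of group means on the vertical axis in each of 5 comparisons. Filled points have an adjusted p under 0.05 in limma and bars are medians. All 14 filled points lie above 0 for day 22 minus day 15 and 24 of 26 lie below 0 for SCGB3A2+ minus SCGB3A2-.

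Promoter windows of RefSeq (GRCh38.p14), 300 bases from 250 before to 50 after an annotated start, were at hand for 63 members. They were searched on both strands for letters that factors of respiratory chain genes are known to bind. The NRF1 letters GCGCANGCG, with N for any base, were in 19 windows (30.2%), against 8.05% of all 27305 windows. The YY1 letters AANATGGCG were in 13 (20.6%) against 3.37%. Forms 1 base longer, searched first, gave 15 windows (23.8%, against 6.28%) for NRF1 and 12 (19%, against 2.26%) for YY1. The ETS letters CCGGAAG, as bound by GABPA, were in 17 (27%) against 10.7%. The letters TNAAGGTCA of the estrogen-related receptors were in 2 (3.17%) against 0.963%. No window held motifs that overlap, and 26 of the 63 held none.

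The windows of UQCR10, UQCRC1 and COX4I1 are shown because these members followed 3 different courses by value, described further on, with motifs in capitals. UQCR10 (chr22:29767119-29767418, plus strand) and UQCRC1 (chr3:48609597-48609896, minus strand) both hold the NRF1 and YY1 letters, and COX4I1 (chr16:85799445-85799744, plus strand) the ETS letters. Windows are read on the strand of the gene, and the NRF1 letters of UQCRC1 and the ETS letters of COX4I1 are on the opposite strand.
UQCR10: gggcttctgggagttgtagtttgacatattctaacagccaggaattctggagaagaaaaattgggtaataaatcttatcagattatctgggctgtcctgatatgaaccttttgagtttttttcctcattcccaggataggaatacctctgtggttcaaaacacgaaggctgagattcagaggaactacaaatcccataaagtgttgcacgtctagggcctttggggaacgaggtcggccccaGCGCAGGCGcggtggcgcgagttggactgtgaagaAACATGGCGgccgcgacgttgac
UQCRC1: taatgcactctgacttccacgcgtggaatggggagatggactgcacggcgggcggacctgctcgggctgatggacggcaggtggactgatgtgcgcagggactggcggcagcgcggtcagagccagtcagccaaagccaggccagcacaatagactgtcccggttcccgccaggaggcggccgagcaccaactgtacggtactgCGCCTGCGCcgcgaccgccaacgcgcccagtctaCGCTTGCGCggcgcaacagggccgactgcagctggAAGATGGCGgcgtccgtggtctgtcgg
COX4I1: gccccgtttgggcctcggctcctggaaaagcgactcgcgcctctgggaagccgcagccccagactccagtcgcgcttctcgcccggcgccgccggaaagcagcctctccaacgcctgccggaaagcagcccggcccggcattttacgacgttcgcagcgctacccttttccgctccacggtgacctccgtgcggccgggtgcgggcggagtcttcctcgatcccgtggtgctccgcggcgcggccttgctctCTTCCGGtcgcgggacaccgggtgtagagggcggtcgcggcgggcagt
UQCR10 rose up to day 22, while UQCRC1 and COX4I1 were lower in SCGB3A2+ than in SCGB3A2- cells. Since these members were chosen by their courses, they cannot show how motifs and courses relate, which was not tested. A match describes letters only.

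From day 0 to day 15 as many members rose as fell. Those called higher were 8 of 77 (10.4%) and those called lower were also 8 (10.4%), both under the shares of all probe sets, 16.2% higher and 15.3% lower. The median difference of the members was -0.07, and that of all probe sets -0.05. By complex, 4 members rose and 1 fell in complex I, 1 rose and 1 fell in complex III, 2 rose and 4 fell in complex IV, and 1 rose and 2 fell in complex V.

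In complex I, NDUFA13, an accessory subunit also known as GRIM-19, rose from 5.40 and 4.64 on the day 0 arrays to 5.78 and 6.14 at day 15, a difference of 0.94 ± 0.24 (adjusted p = 0.00946). NDUFB3, of the membrane arm, rose by 0.87 ± 0.20 (adjusted p = 0.00503) and NDUFB7, whose protein lies on the intermembrane side, by 0.82 ± 0.18 (adjusted p = 0.00383). NDUFA6, an accessory subunit of the LYR family, rose by 0.67 ± 0.17 (adjusted p = 0.0108). NDUFS1, the largest core subunit and a carrier of iron-sulfur clusters, fell by 0.52 ± 0.15 (adjusted p = 0.0194), with both day 15 arrays, 6.73 and 6.58, under both of day 0, 7.04 and 7.30. In a fit of only the arrays compared, the calls of NDUFA13, NDUFB3, NDUFB7, NDUFA6 and NDUFS1 were lost.

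In complex III, UQCR10 and UQCRB, both small subunits, went opposite ways. UQCR10 stood at 5.98 and 5.93 at day 0 and at 6.95 and 6.83 at day 15, higher by 0.94 ± 0.14 (adjusted p = 0.000275). UQCRB stood at 4.25 and 5.15 at day 0 and at 3.13 and 3.61 at day 15, lower by a difference of -1.33 ± 0.30 (adjusted p = 0.0053). The UQCRB call was lost without day 0 replicate C and without day 15 CD47hi replicate B.

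In complex IV, the subunits COX6B1 (0.88 ± 0.21, adjusted p = 0.00779) and COX7A2L (0.72 ± 0.15, adjusted p = 0.00262) rose. COX7A2L is known as a factor of supercomplexes, in which complexes III and IV are held together. COX5B, the zinc-binding subunit, fell by 0.75 ± 0.19 (adjusted p = 0.00967) and COX7C by 0.50 ± 0.16 (adjusted p = 0.0278). The remaining falls were those of COX6B2 and COX8C, which were low throughout and are described with the isoforms.

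In complex V, ATP5MJ, a small membrane subunit, rose by 0.70 ± 0.14 (adjusted p = 0.00255). ATP5MC1, 1 of 3 genes for the c-ring subunit, fell from 6.52 and 6.66 to 5.65 and 5.85, a difference of -0.84 ± 0.16 (adjusted p = 0.00149). ATP5IF1, the inhibitor that keeps the enzyme from splitting ATP and no subunit in the strict sense, fell by 0.49 ± 0.13 (adjusted p = 0.0158). Without day 0 C, 5 of the 8 rises and 3 of the 8 falls were still called. Of the falls 5 were still called without day 15 B and 3 without day 15 C. Calls for ATP5MJ, COX7A2L, UQCR10 and ATP5MC1 remained under every alternative tried.

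Between day 15 and day 22 every member called was higher. Of 77, 14 were called higher (18.2%, with 8.95% of all probe sets), and 0 were called lower (10.6% of all probe sets), with 26 higher and 1 lower at an unadjusted p under 0.05 in limma. By value 60 were higher and 17 lower. Where the highest group mean was above 2.96, 18.3% of members and 12.7% of all such probe sets were called higher, and 0% and 15.1% lower. The median difference was 0.23, against -0.01 for all probe sets. All complexes except complex II had calls: 8 in complex I, 2 in complex III, 1 in complex IV and 3 in complex V.

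UQCR10 had the largest rise of the members, from 6.95 and 6.83 to 8.13 and 7.98, which is a difference of 1.17 ± 0.14, or 2.25-fold (adjusted p = 0.000125). It was the second consecutive rise of UQCR10, which at 8.06 had its highest mean at day 22. ATP5IF1 rose from a mean of 5.08 to 6.18 and 6.07, by 1.05 ± 0.13 (adjusted p = 0.000227). Both of its day 22 arrays also lay above those of day 0, 5.66 and 5.46.

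NDUFB5, of the membrane arm of complex I, rose from 5.08 and 4.93 to 5.99 and 5.97, by 0.97 ± 0.14 (adjusted p = 0.000475). ATP5MC1 returned to the level of day 0 with 6.73 and 6.61, a rise of 0.92 ± 0.16 (adjusted p = 0.00157). NDUFA2, an accessory subunit of the matrix arm, went from 5.86 and 5.85 to 6.54 and 6.63, by 0.73 ± 0.13 (adjusted p = 0.00249). These 5 calls were the ones that remained under every alternative.

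Other rises of 0.5 or more were those of COX7B (0.86 ± 0.22, adjusted p = 0.0163), ATP5MK of the ATP synthase membrane part (0.79 ± 0.18, adjusted p = 0.00785), NDUFB1 (0.75 ± 0.18, adjusted p = 0.0123), NDUFB10 (0.74 ± 0.20, adjusted p = 0.0216) and UQCRQ, a small subunit of complex III (0.69 ± 0.15, adjusted p = 0.0065). NDUFA7, NDUFA12 and NDUFS8 rose as well, by 0.61, 0.56 and 0.52. NDUFV2, with values up to 1.91 on these arrays, was called at 0.47 but lay near the floor of the scale. Of the 14 rises, 5 were still called without day 15 C, 9 without day 15 B, 9 without day 22 A and 7 without day 22 C.

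From day 22 to SCGB3A2- at day 36 no member was called in either direction by limma. At an unadjusted p under 0.05 there were 4 higher and 5 lower, and over all probe sets 3.75% were called higher and 4.15% lower. With an intensity trend and robust variances 2 were called higher and 1 lower. The median difference of the members was 0.00, and the separate differences lay between -0.44 and 0.41. A p that misses the threshold does not show that levels were alike, but no member differed by 0.5 or more.

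From day 22 to SCGB3A2+ most members were lower. The test called 13 of 77 lower (16.9%, with 7.71% of all probe sets) and 2 higher (2.6%, with 6.75%). The median difference was -0.30, against 0.00 over all probe sets, and 62 of 77 differences were below 0. Complex I held 7 of the lower calls, complex III 2, complex IV 1 and complex V 3. NDUFA5 and NDUFB5 were the higher ones, at 1.03 ± 0.20 (adjusted p = 0.00651) and 0.66 ± 0.13 (adjusted p = 0.00592).

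NDUFB2 of the complex I membrane arm had the lowest difference, -1.08 ± 0.23 (adjusted p = 0.00902), followed by ATP5MF at -0.82 ± 0.21 (adjusted p = 0.0216) and ATP5MC1 at -0.81 ± 0.14 (adjusted p = 0.00381). NDUFS8, a core subunit with iron-sulfur clusters, differed by -0.76 ± 0.12 (adjusted p = 0.00217). UQCRC1, a core protein of complex III, differed by -0.73 ± 0.15 (adjusted p = 0.00818). NDUFA2, NDUFB7, NDUFS7 and UQCRQ were lower by values of -0.59, -0.57, -0.56 and -0.54. The count depended on the fit: it was 3 with only the groups compared, 22 without dim probe sets and 25 with an intensity trend and robust variances. Leaving out 1 array gave 2 lower calls without day 22 C, 7 without day 22 A, 5 without SCGB3A2+ A, 8 without SCGB3A2- B, and 23 without either day 0 array. NDUFA5 lost its call without day 22 A and NDUFB5 without day 22 C. Only ATP5MC1 and NDUFS8 were called lower under every alternative.

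Between the 2 sorts of day 36 most calls were again downward in SCGB3A2+. SCGB3A2+ cells had 24 of 77 members called lower (31.2%, with 12.8% of all probe sets) and 2 called higher (2.6%, with 10.1%). Where the highest group mean was above 2.96, 33.8% of members and 18.6% of all such probe sets were called lower, and 2.82% and 14% higher. The median difference was -0.29, against 0.02 over all probe sets, and 58 of 77 were below 0. All 3 SCGB3A2+ arrays lay below all 3 SCGB3A2- arrays for 44 members (57.1%, with 21.6% of all probe sets), and above them for 8 (10.4%, with 18.7% of all probe sets). By complex the lower calls numbered 9 of 34 in complex I, 0 of 2 in complex II, 3 of 7 in complex III, 5 of 16 in complex IV and 7 of 18 in complex V.

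**Figure D2:**
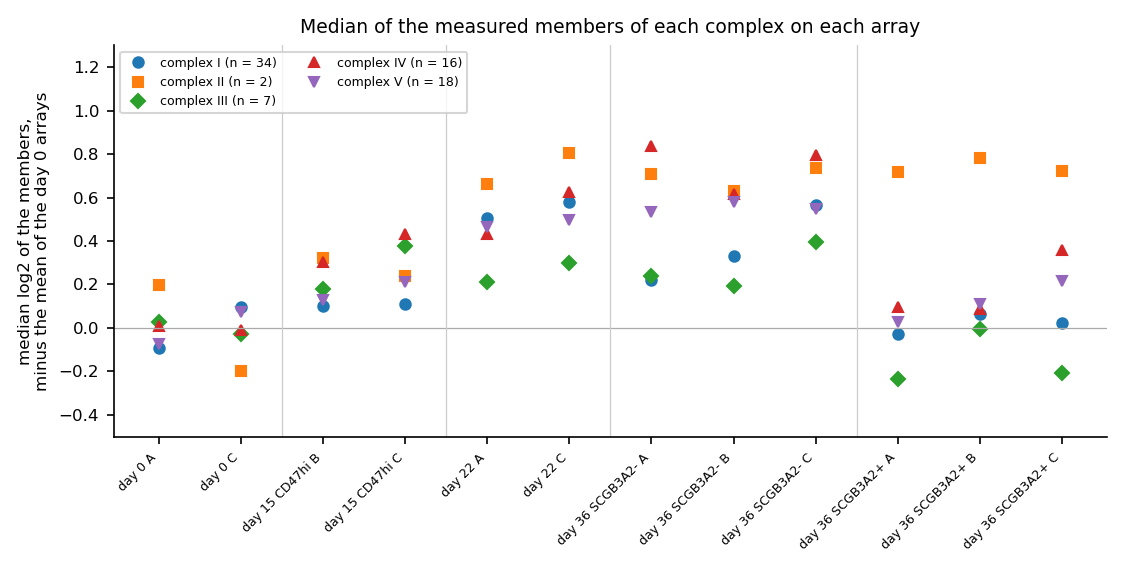
Points give the median log2 value of the measured members of a complex on each of the 12 arrays, less the mean of the day 0 arrays for that complex. The medians of complexes I, III, IV and V are lower on each SCGB3A2+ array than on every SCGB3A2- array, and those of the 2 complex II members are not.

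Within complex I the SCGB3A2+ arrays of NDUFB2 read 5.91, 6.14 and 5.90, and those of SCGB3A2- 6.89, 6.97 and 7.16, a difference of -1.02 ± 0.20 (adjusted p = 0.00326). The day 0 arrays of NDUFB2 lay as far apart as 6.07 and 6.99. NDUFA6 was lower by a difference of -0.71 ± 0.14 (adjusted p = 0.00362), and NDUFB8, of the membrane arm, by -0.65 ± 0.14 (adjusted p = 0.00472). NDUFS8 stood at 7.57, 7.64 and 7.79 against 8.21, 8.29 and 8.28 (difference -0.59 ± 0.11, adjusted p = 0.0022), and neither its day 0 nor its day 22 arrays overlapped with SCGB3A2+. The core subunits had 1 lower call of 6, the NDUFA series 3 of 12, the NDUFB and NDUFC series 2 of 12, and accessory subunits named NDUFS or NDUFV 3 of 4. The share of all probe sets called lower was 12.8%.

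NDUFA5, an accessory subunit of the matrix arm, went against these. Its arrays read 7.84, 8.36 and 7.68 in SCGB3A2+ and 6.94, 7.29 and 6.97 in SCGB3A2-, a difference of 0.89 ± 0.18, or 1.85-fold (adjusted p = 0.00369). At day 0, day 15 and day 22 the values lay between 6.60 and 7.08, so that the 3 SCGB3A2+ arrays were the highest of the 12. NDUFB5 read 6.69, 6.64 and 6.57 in SCGB3A2+ and 5.84, 5.62 and 5.85 in SCGB3A2- (0.86 ± 0.11, adjusted p = 0.000222). NDUFB5 thus rose at day 22 and stood higher again in SCGB3A2+, 1.49 ± 0.13 above day 0 (adjusted p = 1.92e-06). RefSeq lists 12 pseudogenes named after NDUFA5 and 2 after NDUFB5. It lists such copies for 43 members and none for 34. Members called lower had them too, among them COX5B (8), ATP5MF (7) and NDUFS5 (7). Whether the probes also match such copies was not tested for any member.

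**Figure D3:**
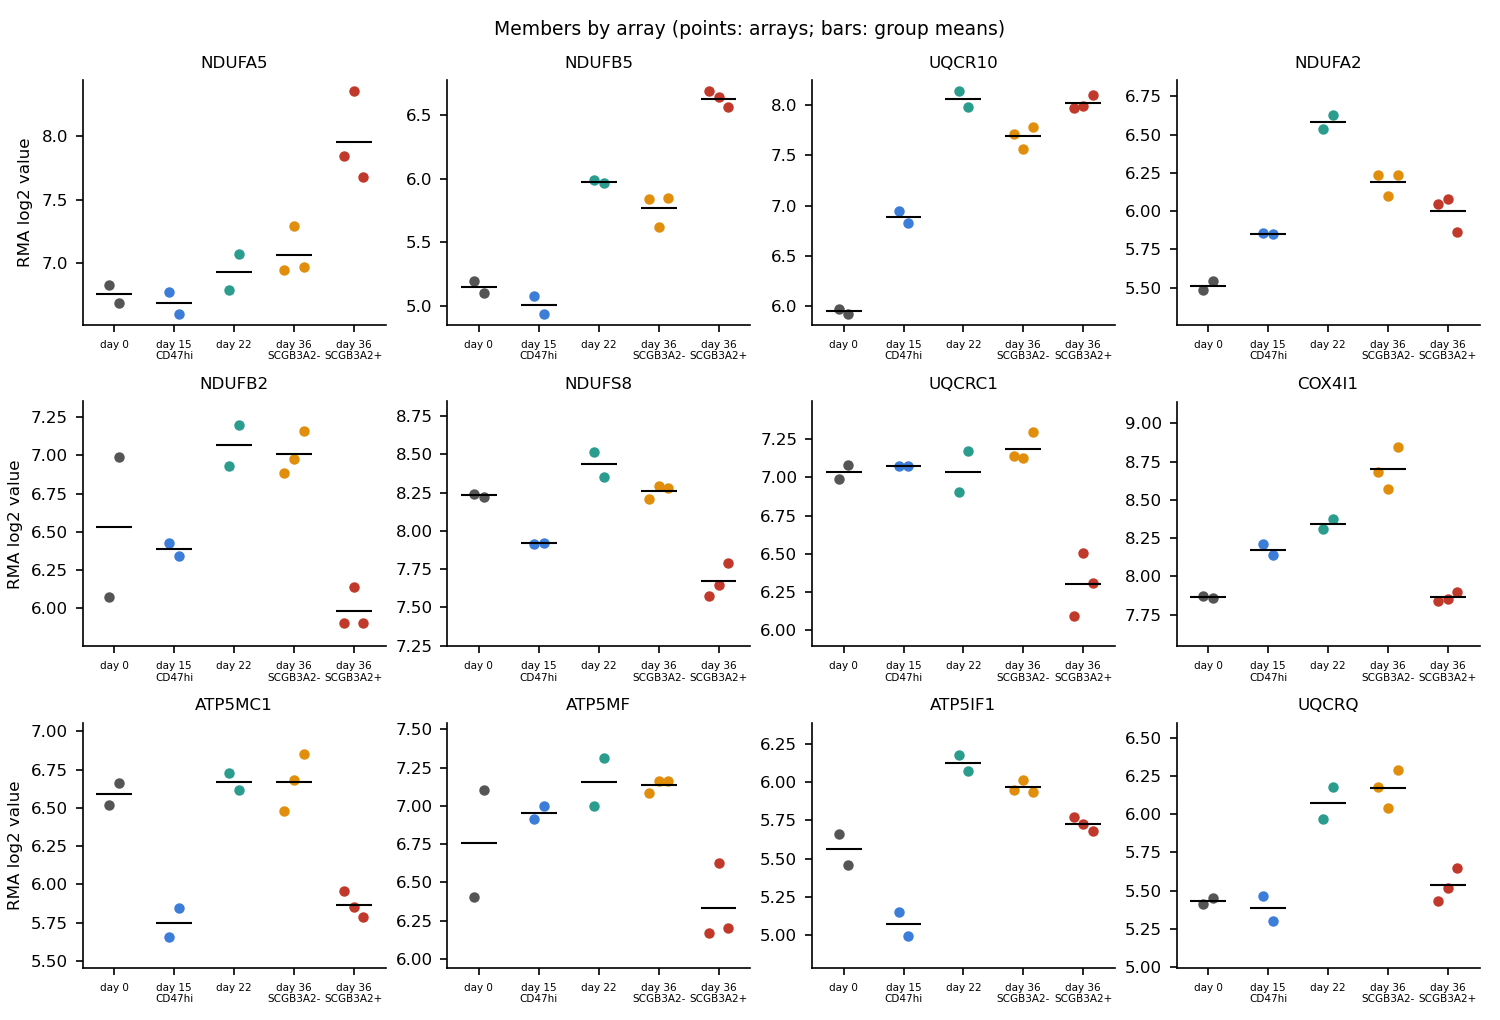
RMA log2 values of 12 members on every array, in panels with their own vertical axes of at least 1.6 log2 units. Points are arrays and bars are group means. NDUFA5 and NDUFB5 are highest in SCGB3A2+, UQCR10 climbs up to day 22, and NDUFB2, NDUFS8, UQCRC1, COX4I1, ATP5MC1, ATP5MF and UQCRQ are lower in SCGB3A2+ than in SCGB3A2-.

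Complex II is represented by its membrane anchors SDHC and SDHD, which bind heme and quinone. Neither was called between the sorts: SDHC differed by -0.19 and SDHD by 0.28. SDHC stood at 5.20 and 5.48 at day 0 and at 5.95, 5.97 and 5.98 in SCGB3A2+, higher by 0.62 ± 0.14 (adjusted p = 0.0028). SDHD was higher by 0.85 ± 0.24 (adjusted p = 0.0123), but its day 0 arrays, 5.06 and 3.99, differed by more than those of any other member. The SDHD call was lost in a fit of only these groups.

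In complex III, UQCRC1 held between 6.90 and 7.30 on all arrays of the 4 other groups and read 6.09, 6.51 and 6.31 in SCGB3A2+. Its difference from SCGB3A2- was -0.88 ± 0.13 (adjusted p = 0.00059). The other core protein, UQCRC2, was at 8.96, 8.96 and 8.92 in SCGB3A2+, higher than day 0 by 0.49 ± 0.11 (adjusted p = 0.00445), and differed from SCGB3A2- by 0.10, which was not called. The core proteins of the same complex therefore had differences of opposite sign, of which 1 was called.

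UQCRQ fell back to 5.43, 5.52 and 5.65 in SCGB3A2+ from 6.18, 6.04 and 6.29 in SCGB3A2- (-0.64 ± 0.12, adjusted p = 0.00262), near its day 0 values of 5.42 and 5.45. UQCR10 read 7.96, 7.99 and 8.09 in SCGB3A2+ and 7.71, 7.56 and 7.78 in SCGB3A2-, without overlap, but the difference of 0.33 was not called. Between day 0 and SCGB3A2+ UQCR10 rose by 2.06 ± 0.13, or 4.18-fold (adjusted p = 1.35e-07). UQCRHL, an intronless gene nearly identical to the hinge protein gene, was lower by a difference of -0.45 ± 0.13 (adjusted p = 0.0283), and its probes may not tell the copies apart.

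In complex IV, COX4I1 is the general form of subunit 4 and among the earliest to join the assembly. By value COX4I1 went from 7.87 and 7.86 at day 0 to 8.68, 8.57 and 8.84 in SCGB3A2-. These groups were not compared by a test, and no step between them, by day 15 and day 22, was called. In SCGB3A2+ it read 7.84, 7.85 and 7.90, at the level of day 0, with a difference from SCGB3A2- of -0.83 ± 0.11 (adjusted p = 0.000227). COX7A2, the general form of subunit 7a, differed by -0.66 ± 0.16 (adjusted p = 0.0108) and COX8A by -0.54 ± 0.14 (adjusted p = 0.0174). The values of COX7A2 were low on the scale, between 3.15 and 4.06 on all arrays. COX7A2L, which rose early, did not go down: it read 8.90, 8.78 and 8.73 in SCGB3A2+ and 8.58, 8.67 and 8.65 in SCGB3A2-.

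In complex V, the membrane subunits ATP5MF (-0.80 ± 0.19, adjusted p = 0.00834) and ATP5MJ (-0.64 ± 0.12, adjusted p = 0.00199) were lower in SCGB3A2+. The catalytic head had 2 of 4 genes called lower and the peripheral stalk, which holds the head still, 1 of 4. Of all probe sets 12.8% were called lower. ATP5PB of the stalk was instead at 9.03, 9.11 and 8.99 in SCGB3A2+, higher than day 0 by 0.77 ± 0.18 (adjusted p = 0.00389). Its day 0 arrays were 8.63 and 7.92.

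Leaving out SCGB3A2+ A or SCGB3A2- C left 15 of the 24 lower calls between the sorts. Of the 24, 14 remained called under every alternative, among them NDUFB2, NDUFS8, UQCRC1, UQCRQ, COX4I1, COX7A2, ATP5MC1, ATP5MC2, ATP5MF and ATP5MJ, and so did both higher calls. With the replicate letter as a block there were 22 lower and 2 higher calls, and ATP5F1B, NDUFA1 and NDUFV3 were no longer called. Among the markers of other cells, AFP was lower in SCGB3A2+ than in SCGB3A2- by a difference of -1.42 ± 0.37 (adjusted p = 0.0161) and APOA1 by -2.65 ± 0.43 (adjusted p = 0.000968). ALB differed by -0.18, which was not called, so 2 of 3 liver markers moved with the respiratory chain members. The part of liver-type cells in the result was not tested.

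Compared with day 0, SCGB3A2+ cells had 18 members called higher (23.4%, with 19% of all probe sets) and 15 called lower (19.5%, with 21.7%), with a median of 0.01 against -0.05 over all probe sets. Next to UQCR10, NDUFB5, NDUFA5 (1.20 ± 0.20, adjusted p = 0.000428), SDHD and ATP5PB, the higher calls included COX7A2L (0.68 ± 0.13, adjusted p = 0.00142), COX6B1, ATP5PD, ATP5F1D and NDUFB3. The lowest difference was that of NDUFB9, -1.13 ± 0.17 (adjusted p = 0.000227), whose values went from 8.15 and 8.17 at day 0 to 7.02, 6.87 and 7.21. NDUFS6, a zinc-binding accessory subunit, differed by -0.94 ± 0.16 (adjusted p = 0.000456), COX5B by -0.79 ± 0.17 (adjusted p = 0.00279) and UQCRHL by -0.80 ± 0.15 (adjusted p = 0.000851). Complex II had both of its members higher, complex III 2 higher and 2 lower, complex IV 2 higher and 4 lower, and complex V 4 each way. Without day 0 C, 11 of the 18 higher and 9 of the 15 lower calls were kept, and the lost calls included those of ATP5F1D, COX6B1 and ATP5PD.

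The rise at day 22 and the lower level in SCGB3A2+ share no arrays, since the first compares day 22 with day 15 and the second the sorts of day 36. By value 44 of 77 members rose at day 22 and were lower in SCGB3A2+, 16 rose and were higher, 14 fell and were lower, and 3 fell and were higher. Over all 23786 probe sets these counts were 4963, 6599, 6445 and 5779. Since 60 of 77 members rose at day 22 and 58 of 77 were lower in SCGB3A2+, the count of 44 does not show a link between the steps. Among the 14 members called higher at day 22, 11 were lower in SCGB3A2+ by value, 3 were called lower and 1 was called higher. Across the members both differences correlated at r = 0.118, where the correlation over all probe sets was 0.146. Members are not independent of each other.

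Tissue isoforms of complex IV read 3.82 or less on every array. COX4I2 read 2.56 and 2.84 at day 0 and 2.79, 2.97 and 3.29 in SCGB3A2+, and no comparison called it (F-test adjusted p = 0.485). The heart and muscle forms COX6A2, between 2.82 and 3.82, and COX7A1, between 2.0 and 3.11, were not called either. COX7B2 stayed between 1.42 and 2.33. For scale, 2.96 is the value under which 40% of all values in the table lie. The group means of COX6A2 were all above it, as were those of COX4I2 at day 15 (3.07) and in SCGB3A2+ (3.02).

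The testis forms COX6B2 and COX8C were highest at day 0. COX6B2 read 2.53 and 1.90 at day 0 and 1.48 and 1.39 at day 15, a difference of -0.78 ± 0.20 (adjusted p = 0.00961). COX8C went from 1.78 and 1.91 to 1.49 and 1.31, a difference of -0.44 ± 0.14 (adjusted p = 0.0316). Both remained under 2.96 on every array and both calls were lost in the fit of only the arrays compared. Of the markers of germ cells (5 genes), striated muscle (7) and endothelium (3), array means lay between 1.31 and 2.86. By the F-test 0 of 5, 2 of 7 and 0 of 3 differed among the groups, where 51.3% of all probe sets did. The pericyte markers, which go with COX4I2 in other tissues, differed in 6 of 6, with array means of 3.49 to 4.76. Of these, ABCC9 was at 4.38 at day 15, at 3.96 in SCGB3A2+ and between 1.74 and 1.88 in the other groups. Between the sorts 2 of the 6 were called higher in SCGB3A2+ and 1 lower, where 10.1% and 12.8% of all probe sets were.

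**Figure D4:**
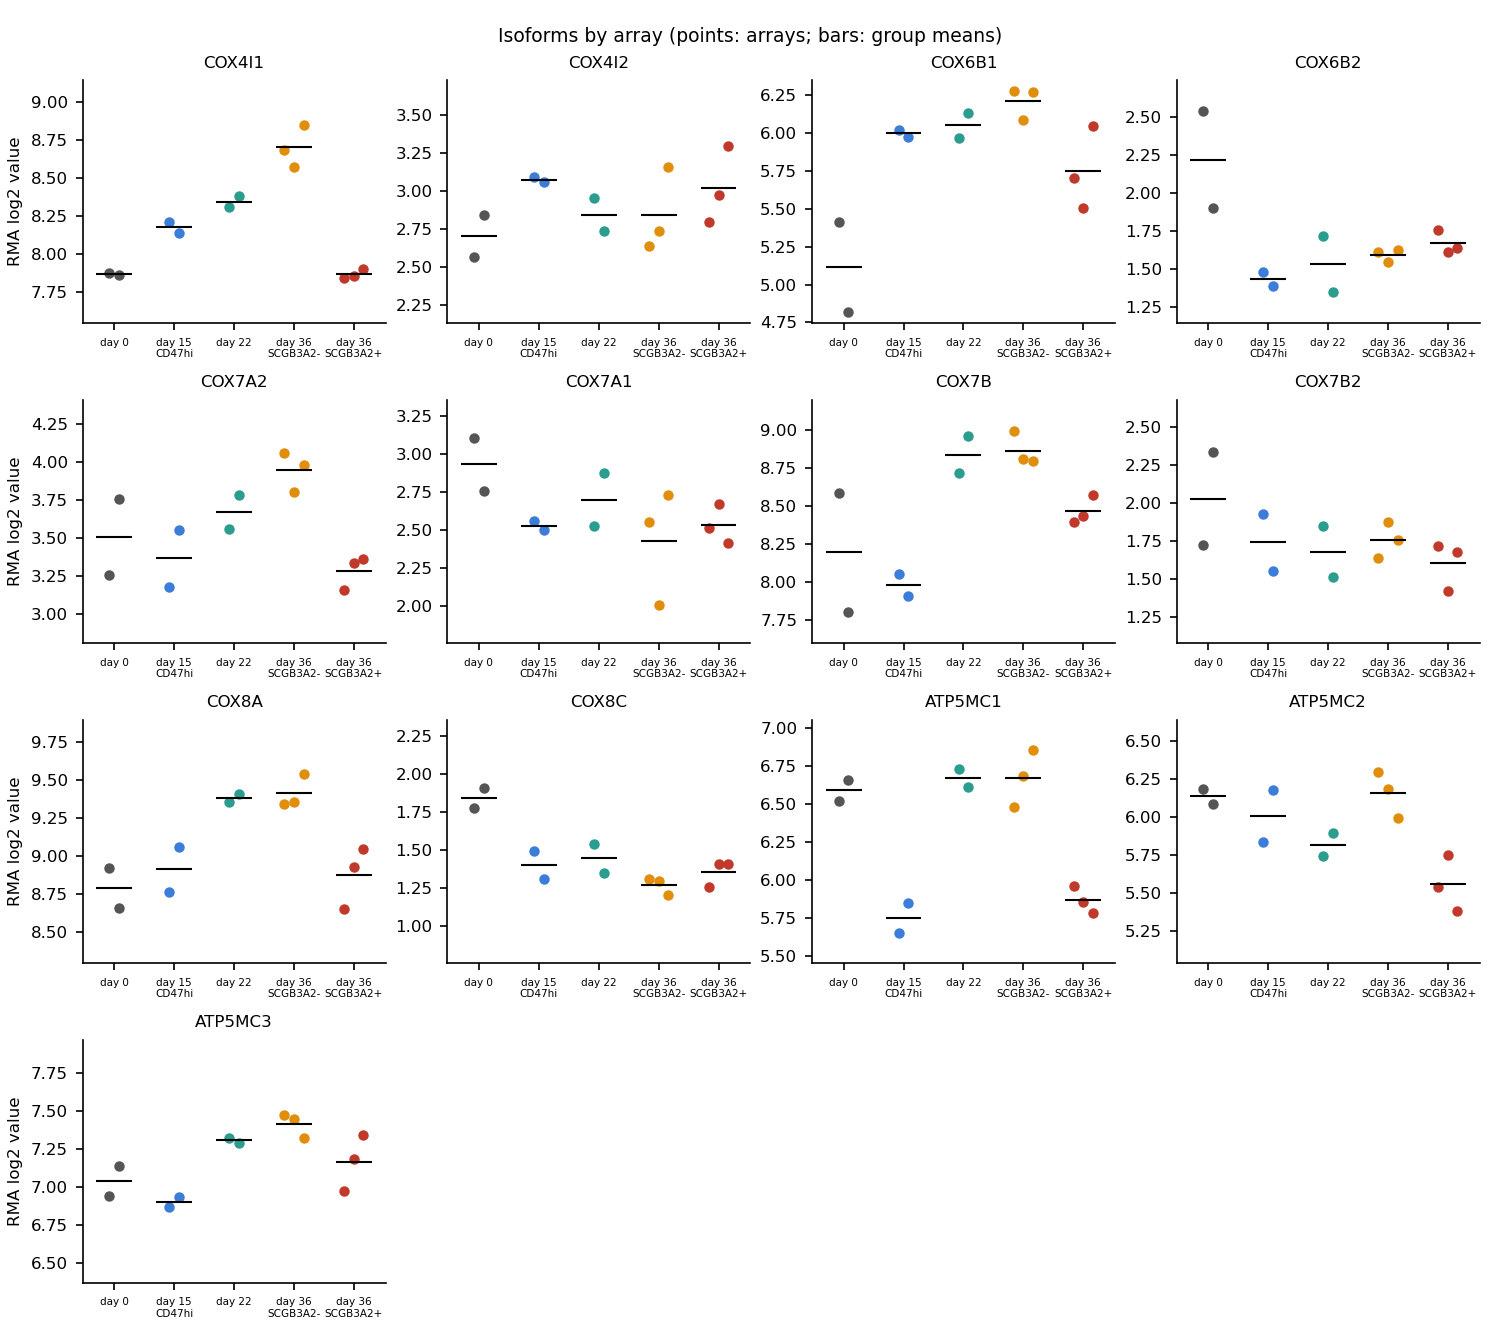
RMA log2 values of isoforms on every array, each general form of complex IV beside its tissue form, and the 3 c-ring genes of ATP synthase. Points are arrays, bars are group means and the panels have their own vertical axes, so levels are to be read within a panel. COX4I2, COX6B2, COX7A1, COX7B2 and COX8C read 3.29 or less on all 12 arrays.

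The 3 c-ring genes ATP5MC1, ATP5MC2 and ATP5MC3 encode the same mature protein with different import sequences, and their probe sets moved differently. ATP5MC1 had means of 6.59 at day 0, 5.75 at day 15, 6.67 at day 22, 6.67 in SCGB3A2- and 5.87 in SCGB3A2+. Its arrays in SCGB3A2+, 5.96, 5.85 and 5.79, did not overlap with those of SCGB3A2- (-0.81 ± 0.13, adjusted p = 0.000825). ATP5MC2 was lower in SCGB3A2+ than SCGB3A2- by a difference of -0.60 ± 0.14 (adjusted p = 0.0104) and was called neither from day 0 to day 15 nor from day 15 to day 22. ATP5MC3 ranged from 6.87 to 7.47 and was called in none of the 6 comparisons. RefSeq lists 8 pseudogenes named after ATP5MC1, 5 after ATP5MC2 and 0 after ATP5MC3.

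COXFA4, a complex IV subunit long listed as NDUFA4 and so outside the symbol series, was lower in SCGB3A2+ than in SCGB3A2- by a difference of -0.69 ± 0.18 (adjusted p = 0.0165). Its hypoxia-induced relative COXFA4L2 stayed between 1.26 and 2.42 and was not called (F-test adjusted p = 0.94). Of 14 hypoxia-inducible genes 8 were higher and 1 lower in SCGB3A2+ than at day 22, and 4 were higher and 0 lower than in SCGB3A2-. Of all probe sets 6.75% and 7.71% were called in the first comparison and 10.1% and 12.8% in the second. The 4 included EGLN1 (0.58 ± 0.15, adjusted p = 0.016) and NDRG1 (0.86 ± 0.24, adjusted p = 0.0234). EPAS1, which encodes the hypoxia factor HIF-2 alpha, had means of 2.73, 4.29, 8.62, 7.33 and 8.89 in the order of the groups.

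Some members expected in all nucleated cells read near the floor, and such a value is no evidence that a transcript was absent. NDUFV2, the core subunit that takes part in NADH oxidation, lay between 1.24 and 1.91 and COX6C between 2.59 and 3.21. NDUFB3 lay between 1.89 and 3.32. CYCS, cytochrome c itself, read 0.97 to 2.07. In all 6 members, NDUFV2, COX6B2, COX7A1, COX7B2, COX8C and ATP5MGL, had no group mean above 2.96. ATP5MGL is a copy of another subunit gene. Without such dim probe sets SCGB3A2+ had 22 lower calls against day 22.

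CYC1, cytochrome c1 of complex III, read 5.88, 6.05 and 6.09 in SCGB3A2+ and 6.81, 6.59 and 6.70 in SCGB3A2-, a difference of -0.70 ± 0.12 (adjusted p = 0.00147). NDUFAB1, the acyl carrier protein of complex I, was called in no comparison and lay between 6.22 and 6.82.

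Assembly factors, which build the complexes without staying in them, were counted in the same way. Of 51 measured, 4 were higher and 4 lower in SCGB3A2+ than in SCGB3A2- (7.84% each way, with 10.1% and 12.8% of all probe sets), with a median of -0.03. At day 15 19 were lower and 6 higher than at day 0, with a median of -0.29, where 15.3% and 16.2% of all probe sets were called. NDUFAF7, a methyltransferase for complex I assembly, went from 7.14 and 7.32 at day 0 to 5.32 and 5.24 at day 15 (-1.95 ± 0.16, adjusted p = 4.07e-06). NDUFAF4 fell by 1.64 ± 0.18 (adjusted p = 3.27e-05) and TMEM126B, which acts in assembly of the membrane arm, by 1.43 ± 0.16 (adjusted p = 3.55e-05). NDUFAF3 rose by 0.74 ± 0.14 (adjusted p = 0.00164). In SCGB3A2+ NDUFAF7 and TMEM126B were higher than in SCGB3A2-, by 0.63 ± 0.13 (adjusted p = 0.00481) and 0.57 ± 0.13 (adjusted p = 0.00796).

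Of 9 genes for upkeep and transcription of mitochondrial DNA 5 were called lower and 0 higher at the same step (median -0.62), where 15.3% and 16.2% of all probe sets were called. TWNK, the mitochondrial helicase, fell by 1.10 ± 0.16 (adjusted p = 0.0003), POLG2, a polymerase subunit, by 1.47 ± 0.25 (adjusted p = 0.000895), and POLRMT, the mitochondrial RNA polymerase, by 0.89 ± 0.19 (adjusted p = 0.00378). TFAM, which packages mitochondrial DNA, had 5.52 and 5.57 at day 0 and 4.66 and 4.62 at day 15 (-0.91 ± 0.14, adjusted p = 0.000388). POLRMT was lower again in SCGB3A2+ than in SCGB3A2- (-0.77 ± 0.16, adjusted p = 0.00389), the only call of the 9 between the sorts.

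Among regulators, PPARGC1A, the coactivator PGC-1 alpha known to drive respiratory chain genes, read 3.99 and 2.97 at day 0, 4.15 and 4.77 at day 15, 6.32 and 6.04 at day 22, 6.29, 6.60 and 6.13 in SCGB3A2- and 6.61, 6.97 and 7.48 in SCGB3A2+. Its rise from day 15 to day 22 was 1.72 ± 0.35 (adjusted p = 0.00481) and its difference between SCGB3A2+ and day 0 was 3.54 ± 0.32 (adjusted p = 3.19e-06). Between the sorts it differed by 0.68 ± 0.29, which was not called (adjusted p = 0.119). PPRC1, a related coactivator, went the other way: 7.42 and 7.71 at day 0, 5.37, 5.78 and 5.75 in SCGB3A2+ (-1.93 ± 0.15, adjusted p = 1.21e-06), and lower than in SCGB3A2- by a difference of -0.53 ± 0.14 (adjusted p = 0.0164). NRF1, ESRRA and ESRRG were called in no comparison. TFB2M, a factor of mitochondrial transcription, fell by 1.32 ± 0.15 at day 15 (adjusted p = 4.13e-05) and rose by 0.98 ± 0.15 at day 22 (adjusted p = 0.000781), while TFB1M fell at both steps, by 0.71 and by 0.65.

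**Figure D5:**
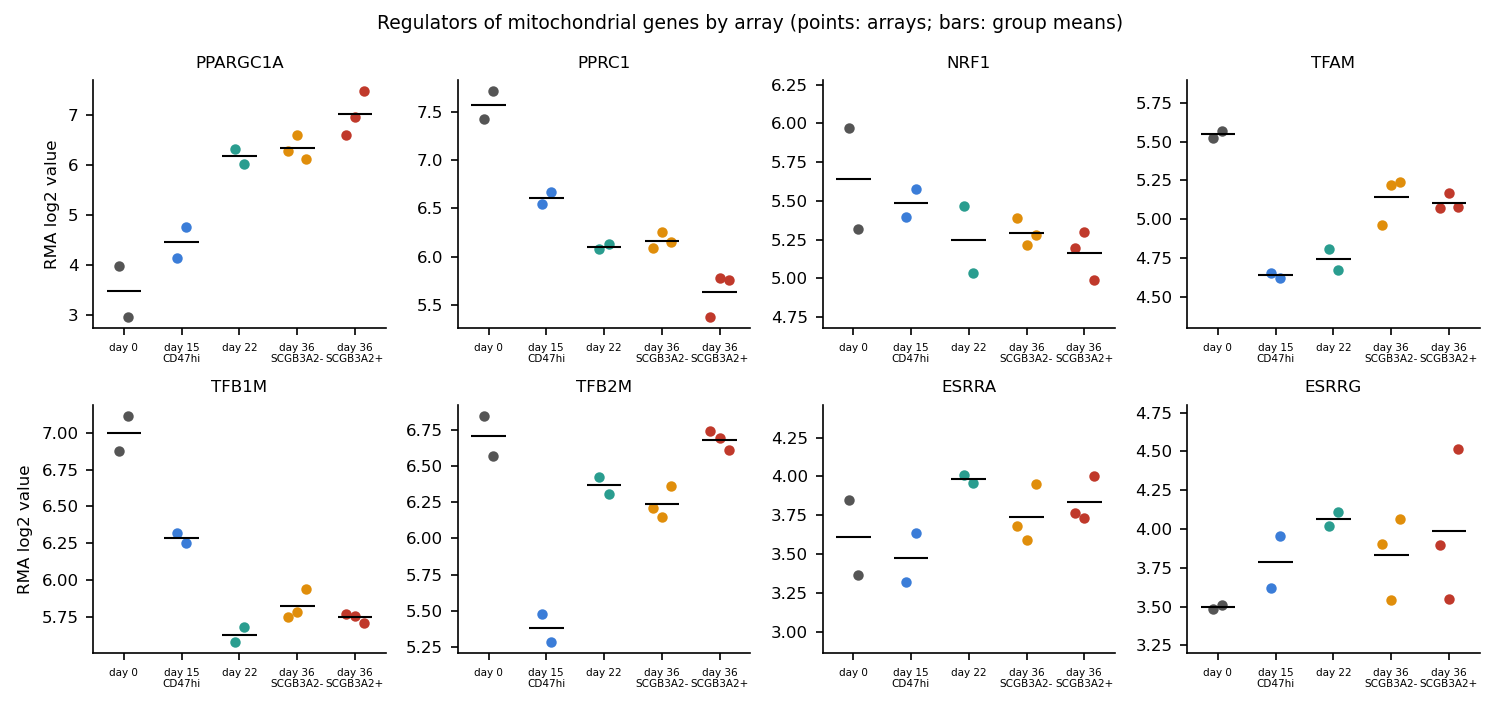
RMA log2 values of 8 regulators of mitochondrial genes on every array, with points for arrays and bars for group means, in panels with their own vertical axes. PPARGC1A climbs from a mean of 3.48 at day 0 to 7.02 in SCGB3A2+, and PPRC1 goes down from 7.57 to 5.64.

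Of 14 enzymes of the citric acid cycle and of pyruvate entry, which feed the chain, 7 were called higher and 0 lower at day 22 than at day 15 (median 0.39), where 8.95% and 10.6% of all probe sets were called. Between the sorts 2 were higher and 3 lower in SCGB3A2+ (14.3% and 21.4%, with 10.1% and 12.8% of all probe sets). IDH3A, the catalytic subunit of the NAD-dependent isocitrate dehydrogenase, stood at 7.84, 7.84 and 7.90 in SCGB3A2+ and 7.29, 7.15 and 7.24 in SCGB3A2- (0.64 ± 0.12, adjusted p = 0.00293). Succinyl-CoA ligase, which gives either ATP or GTP depending on its beta subunit, had a shared alpha subunit SUCLG1 that was lower in SCGB3A2+ (-0.63 ± 0.19, adjusted p = 0.0334) and a GTP-type beta subunit SUCLG2 that was higher (0.54 ± 0.15, adjusted p = 0.0236). From day 0 to SCGB3A2+ both rose, SUCLG1 by 1.52 ± 0.21 and SUCLG2 by 1.50 ± 0.17.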

How the data were processed

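Gene expression was measured on 12 Affymetrix arrays of RUES2 cells in 5 groups taken from the labels. The deposited table holds log2 values for 23786 probe sets (0.265 to 12.3), which the authors made by RMA with affy 1.36.1 in R 2.15.1, per the submitters' processing notes. RMA corrects background, normalizes arrays to one another and compresses low values. Array medians were 3.66 to 3.75, and 0 columns were left unused. The number of arrays limits the precision. Probe sets are numbered by gene, and the platform annotation gave a symbol for 22458 of them and none for 1328. Members were matched by symbol. A gene without a named probe set is not analysed here.

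limma 3.58.1 (lmFit and eBayes, R 4.3.3) was fitted to every probe set, with 1 mean per group over all 12 arrays and 7 residual plus 4.43 prior degrees of freedom. For each of 6 comparisons and an F-test, two-sided p-values were adjusted by Benjamini-Hochberg across the whole table and called under 0.05. The fit was tested on simulated data. The members, gene lists and rule for named genes were chosen with earlier results of these data known. The rule names every isoform, both succinate dehydrogenase anchors, up to 10 members each way called at a log2 difference of 0.5 or more in a comparison, a fixed set of context genes, and up to 4 genes of each other list by the F-test. Of 174 list entries 156 had a probe set.

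Replicate letters were checked by correlating deviations from the group means over all probe sets. Between the sorts of day 36 same-letter arrays correlated at 0.104 (A), 0.124 (B) and 0.111 (C), and the letters were taken to pair them, although these values depend on one another. A fit with the letter as a replicate block, which left 22 lower and 2 higher calls between the sorts, is given beside results of the sorts where it changed a call. Between day 22 and SCGB3A2- the same-letter values were as high, 0.126 (A) and 0.114 (C). The main fit paired no groups, the sorts included, and the block fit was run for all 6 comparisons. For the remaining groups pairing was not established, and the calls lost with the block stand in the closing section. Other alternatives were a fit of only the groups compared, robust variances with an intensity trend, array weights, a filter on dim probe sets (highest group mean up to 2.96, the 40th percentile of all values), quantile normalization, aligned medians and leaving out each array. Promoter windows and pseudogene names came from RefSeq (GRCh38.p14 for the windows). The NRF1 and YY1 letters were each shortened by 1 base after a first search, a choice made after seeing the data.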

Additional observations from a re-analysis of the deposited data

Results flagged for a closer look

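For 26 members the change from day 22 to day 36 differed between SCGB3A2+ and SCGB3A2- cells by limma's test of that difference, which is the comparison of the sorts, since day 22 cancels. These are given as values, and no explanation was tested. In complex I the difference SCGB3A2+ minus SCGB3A2- was -1.02 for NDUFB2, -0.71 for NDUFA6, -0.65 for NDUFB8, -0.60 for NDUFA11, -0.59 for NDUFS8, -0.52 for NDUFS5, -0.49 for NDUFA1, -0.47 for NDUFS6 and -0.38 for NDUFV3. NDUFB5 and NDUFA5 were the members with a positive difference, at 0.86 and 0.89. In complex III it was -0.88 for UQCRC1, -0.64 for UQCRQ and -0.45 for UQCRHL. In complex IV it was -0.83 for COX4I1, -0.66 for COX7A2, -0.62 for COX5A, -0.61 for COX5B and -0.54 for COX8A. In complex V it was -0.81 for ATP5MC1, -0.80 for ATP5MF, -0.64 for ATP5MJ, -0.60 for ATP5MC2, -0.42 for ATP5PO, -0.42 for ATP5F1C and -0.36 for ATP5F1B. With the replicate block the calls for ATP5F1B, NDUFA1 and NDUFV3 were lost. No group held enough arrays for a test of single outlying arrays.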

How the results depend on the processing

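None of the 72 called values among the named differences changed direction under any alternative. Of 2864 alternative values of 152 named differences (72 of them called), 132 lost their call, 25 gained one and 54 without a call changed sign. In a fit of only the groups compared, fewer members were called: 4 higher and 2 lower at day 15 than at day 0, 3 lower in SCGB3A2+ than at day 22, and 7 higher and 8 lower in SCGB3A2+ than at day 0. With array weights 5 were lower at day 15 than at day 0, and 9 higher and 8 lower in SCGB3A2+ than at day 0. SCGB3A2+ had 25 lower than day 22 with an intensity trend and robust variances and 22 without dim probe sets. SCGB3A2- had 2 higher than day 22 with the trend, and 1 lower with the trend, with array weights or without dim probe sets. Leaving out 1 array gave 5 to 11 higher and 3 to 8 lower for day 15 against day 0, 5 to 20 higher and 0 to 1 lower for day 22 against day 15, 1 to 3 higher and 2 to 23 lower for SCGB3A2+ against day 22, 15 to 31 lower for SCGB3A2+ against SCGB3A2-, and 13 to 18 higher and 10 to 16 lower for SCGB3A2+ against day 0. The replicate block gave 22 lower and 2 higher between the sorts, 11 lower in SCGB3A2+ than at day 22, 13 higher at day 22 than at day 15, and 15 higher and 14 lower in SCGB3A2+ than at day 0. It also ended the calls of NDUFS1 and COX8C at day 15, of COX7B, NDUFB10, NDUFS8 and NDUFV2 at day 22, of ATP5MJ, COX4I1, NDUFB11, NDUFB7 and NDUFS7 between SCGB3A2+ and day 22, and of ATP5F1D, NDUFB1, NDUFB7, ATP5F1A and ATP5F1B between SCGB3A2+ and day 0, although pairing by letter is not established there. The cause of these shifts was not tested. The number of arrays and values near the floor limit what can be seen.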

Other observations

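The mitochondrial ribosomal proteins, which make the subunits encoded by mitochondrial DNA, were counted after the values of the respiratory chain had been seen. Of 76 genes, 16 were lower and 6 higher in SCGB3A2+ than in SCGB3A2- cells, with a median difference of -0.22, where 12.8% and 10.1% of all probe sets were called. From day 0 to day 15, 20 were lower and 7 higher (median -0.16), where 15.3% and 16.2% of all probe sets were. From day 15 to day 22, 9 were higher and 1 lower (median 0.15), where 8.95% and 10.6% of all probe sets were.

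The pericyte gene ABCC9, which encodes a subunit of potassium channels, was at 4.06, 3.57 and 4.24 on the SCGB3A2+ arrays and at 1.83, 1.73 and 1.67 on those of SCGB3A2-, a difference of 2.21 ± 0.26 (limma adjusted p = 0.000116). It was also at 3.76 and 5.01 at day 15, and at 1.89 and 1.88 at day 22. The 6 pericyte markers together did not go 1 way between the sorts. In SCGB3A2+ 2 were called higher and 1 lower, with a median difference of -0.06, where 10.1% and 12.8% of all probe sets were called.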
